A study of Mus musculus with 8 samples.

Results

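The gp130 cytokine receptors and Janus kinases were 8 mouse genes: the shared signalling subunit gp130 (Il6st), the receptor subunits Il6ra, Osmr, Lifr and Il11ra1, and the kinases Jak1, Jak2 and Tyk2. Their accessible regions were taken from the deposited coverage table by position alone. A region belonged to a gene when it lay inside it in GRCm38, or within 50 kb of it with that gene holding the nearest protein-coding gene end. This gave 94 of the 148664 regions, 63 inside the genes and 31 outside, for 8 of 21887 protein-coding genes. Jak1 had 30 regions, Lifr 17, Jak2 12, Osmr 10, Il6st and Il6ra 9 each, Tyk2 5 and Il11ra1 2. ATAC-seq, in which a transposase cuts open chromatin, had been run on 4 mouse melanoma lines with 2 libraries per line. Lines 112 and 113 are labelled STAT3 knockout (Stat3∆ in the protocols), and lines 119 and 73 wild type, where the protocols write Stat3fl, that is, the floxed allele without its deletion. The lines were pools of cells from lymph nodes of mice whose skin melanoma began at about 25 to 30 weeks of age, although the labels also call each line a clone. The Cre that made the deletion and the driver of the tumours are not given in the sources used here. The titles carry a p number that differs in every line (18 for line 112, 44 for 113, 14 for 119 and 68 for 73) and whose meaning is not stated, so its part cannot be told apart from that of the line.

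Interleukin-6 family cytokines bind a cytokine-specific receptor subunit, which brings gp130 into a signalling complex. Il6ra binds interleukin-6, Il11ra1 binds interleukin-11, and Lifr and Osmr are signalling subunits that pair with gp130 for leukaemia inhibitory factor and oncostatin M. The receptor tails carry the Janus kinases Jak1, Jak2 and Tyk2, which phosphorylate the receptors and then STAT proteins, above all Stat3. In melanoma this pathway is known for its growth and differentiation effects. The comparison asks how chromatin at the genes upstream of Stat3 stood in the lines labelled STAT3 knockout and wild type.

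The 8 libraries held 2697546 to 7464336 counts and 20387 to 94906 peaks, and the smallest library was the second of line 112. Values of the libraries of a line are given with the line number in brackets, first and second library in turn. Levels below are counts per 1000000 (CPM) after TMM scaling (edgeR's correction for composition), on which 1 count was 0.130 to 0.316 CPM. The 2 libraries of a line are labelled biological replicates, with nothing to say that they came from separate cultures, so p-values between lines measure the spread between these libraries. Regions at the ends of 10 of 10 melanocyte genes were in the table, and their summed level was 193.6 to 406 CPM in the knockout libraries and 132 to 138 in the wild-type libraries, and the genes did not move as one. In line 73 Mitf (37.8 and 39.6 CPM) and Pmel (75.03 and 72.6 CPM) were at their highest and Sox10 (2.53 and 3.58 CPM) and Pax3 (5.83 and 6.604 CPM) at their lowest. Sox10, Tyr, Tyrp1, Dct, Mlana and Kit were higher in every knockout library than in every wild-type library, those of line 119 included. Dct gave 21.2 to 70.5 CPM in the knockout and 0.507 to 4.24 in the wild-type libraries. Tyr gave 14.5 to 22.8 and 1.65 to 4.93, and Mlana 9.08 to 11.8 and 0 to 0.848. Mitf, Pmel, Pax3 and Ednrb overlapped between genotypes. Summed regions of 5 of 5 fibroblast genes gave 38.3 to 47.5 CPM in the knockout and 26.8 to 79.6 in the wild-type libraries. The sum was highest in line 73, as were Col1a1, Col1a2 and Dcn. Pdgfra went the other way, at 8.54 to 19.6 CPM in the knockout and 0.760 to 1.87 in the wild-type libraries. Lum did too, at 0.982 to 2.60 and 0.389 to 0.825 CPM. No region lay at the ends of Ptprc, which marks all leukocytes. Summed regions of 3 of 5 T cell genes gave 29.4 to 46.1 CPM in the knockout and 9.91 to 23.6 in the wild-type libraries, with only Cd2 above 10 CPM. The 3 of 5 B cell genes gave 16.8 to 19.6 and 17.8 to 27.1 CPM, the 2 of 4 myeloid genes 6.64 to 14.5 and 6.84 to 8.55, and the 1 of 4 endothelial genes 2.13 to 5.69 and 5.50 to 7.52. The part of these markers in the results below was not tested. Counts summed over the 12 regions of Stat3 itself were 84.7 and 88.2 (112), 75.04 and 82.3 (113), 55.7 and 58.4 (119) and 66.2 and 52.8 (73) CPM of summed counts. On this scale the knockout libraries were all higher, and all 4 knockout over wild-type line pairs had an adjusted p under 0.05, with a genotype log2 fold change of 0.48 ± 0.27 (SE, adjusted p = 0.662). The deposited regions do not say which part of Stat3 was deleted, so these levels do not check the labels.

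All 8 genes had an accessible region over an annotated start, and these start regions had peaks in all 8 libraries for 5 of them (Il6st, Il11ra1, Jak1, Jak2 and Tyk2). Per kb of region, the mean level over the 4 lines was 69.7 CPM for Il6st, 60.7 for Jak2, 54.8 for Jak1, 47.6 for Tyk2, 32.3 for Il6ra, 31.5 for Il11ra1, 27.6 for Lifr and 13.99 for Osmr. The Il6st start (chr13:112463754-112464343) gave 33.5 and 31.3 (112), 50.7 and 52.3 (113), 28.1 and 30.4 (119) and 52.5 and 50.1 (73) CPM. Lines 113 and 73 were high and lines 112 and 119 low, one line of each genotype on either side. The Jak1 start (chr4:101264975-101265557) gave 24.6 and 21.2 (112), 41.04 and 40.7 (113), 25.1 and 25.4 (119) and 36.8 and 40.7 (73) CPM, and the Jak2 start (chr19:29251454-29252009) gave 23.9 and 27.5 (112), 37.8 and 38.05 (113), 24.6 and 26.96 (119) and 45.6 and 45.4 (73) CPM, with the lines split in the same way. So was the start of Tyk2 (chr9:21131060-21131714) at 28.3 and 16.4 (112), 47.95 and 41.5 (113), 19.4 and 20.2 (119) and 40.6 and 34.9 (73) CPM.

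That split ran through gene starts in general. Over all 11522 tested regions that cover a listed start, the median log2 ratio to the mean of the 4 lines was -0.20 (112), 0.34 (113), -0.39 (119) and 0.29 (73). Start regions held 25.1% to 26.4% of counts (112), 30.6% (113), 21.3% to 21.6% (119) and 30.4% to 30.5% (73). When libraries were instead scaled on start regions, an alternative chosen after these data were seen, the log2 ratio of line 113 over 119 moved by -0.72, that of 119 over 73 by 0.68, and that of knockout over wild type by -0.11, as medians over the 89 tested regions. With the first scaling, line 112 over 119 differed at 2 of the 8 member starts (background of all start regions 34.7%), 112 over 73 at 8 (61.0%), 113 over 119 at 5 (78.8%), 113 over 73 at 2 (34.4%), 112 over 113 at 7 (53.3%) and 119 over 73 at 7 (76.5%). The Il6st, Jak1 and Jak2 starts each differed in 4 of 6 line pairs with the first scaling and in 0 with the second, and the Tyk2 start in 4 and 2. Il6ra and Lifr kept 5 pairs each, Osmr went from 3 to 4 and Il11ra1 from 2 to 3. The line-to-line range at the Osmr, Lifr and Il6ra starts stood at the 98.1, 92.3 and 90.0 percentiles of all start regions, against 59.7 for Tyk2 and 7.42, 17.8, 18.7 and 20.03 for Il11ra1, Il6st, Jak2 and Jak1.

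**Figure D1:**
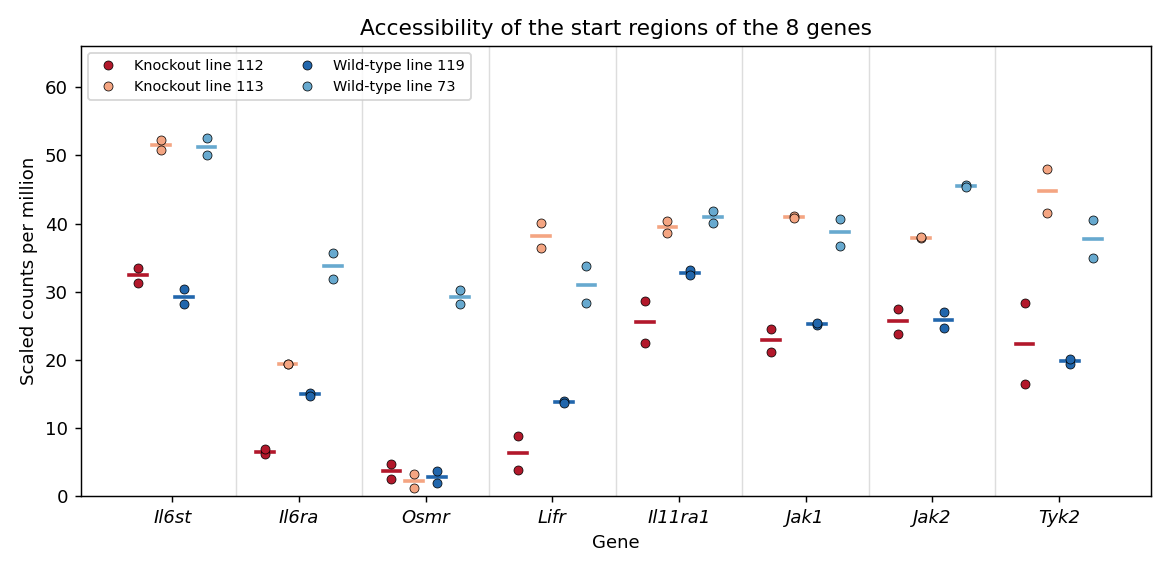
TMM-scaled CPM (y axis) of the start region of each gene (x axis) in the 8 libraries, with points for single libraries and bars for the mean of the 2 libraries of a line. Osmr stands at 28.1 and 30.3 in line 73 and at 1.15 to 4.74 elsewhere, while Il6st, Jak1, Jak2 and Tyk2 are higher in lines 113 and 73 than in lines 112 and 119.

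Between genotypes, no region of these genes passed the test. Of the 94 regions 89 had enough counts to be tested, and 5 (4 of Lifr, 1 of Tyk2) did not. With the line as the unit (2 knockout against 2 wild-type lines, edgeR's quasi-likelihood test, Benjamini-Hochberg adjustment over all regions), 0 of 89 had an adjusted p under 0.05, as had 0.0% of all 134068 tested regions. No adjusted p was below 0.155. Without adjustment, 15 of 89 had p under 0.05 (4 higher and 11 lower in the knockout lines), against 16.5% of all regions (7.48% higher, 9.06% lower), and DESeq2 called 5 of 89 (1 higher, 4 lower) against 4.92%. Treating the 8 libraries as independent, which they are not, called 22 of 89 (8 higher, 14 lower) against 22.8%. The log2 fold changes ran from -3.16 to 3.47 with a median of -0.60, against -0.13 for all tested regions, and 64 were below and 25 above 0, where 45.1% of all tested regions were above 0. The knockout libraries did not overlap the wild-type libraries at 24 of 89 regions, against 26.7% of all regions.

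A stricter description asks that both knockout lines differ from both wild-type lines. A region was called separated when all 4 knockout over wild-type line pairs had an adjusted p under 0.05 with the same sign, in a fit over all 8 libraries. This held for 16 of 89 regions, 5 higher and 11 lower in the knockout lines, against 15.8% of all tested regions (8.22% higher, 7.55% lower). The total share is near that background. Of the 8 start regions 0 were separated (6.05% of all start regions), and the 16 lay in 6 genes, 8 inside the genes and 8 outside. All 11 lower regions had a peak in all 4 wild-type libraries, and 8 of them had no peak in any knockout library. Of all 10116 separated lower regions in the table, 82.3% had a peak in all 4 wild-type libraries and 78.5% had none in the knockout libraries, which had 20387 to 52250 peaks in all against 56096 to 94906. In bulk libraries such as these, fewer cells with a region open, fewer copies of the locus and less accessibility per copy cannot be told apart. The median level over the 10 Mb window around each gene lay between -0.24 and 0.27 on the log2 scale of the mean of the 4 lines, and 15 of the 16 stayed separated with that level as an offset. Leaving out the first library of line 112 left 10 of the 16, and DESeq2 kept 10. The 7 regions that lost the call under at least 1 alternative were Il6st at -24.3 kb, Il6ra at 33.0 kb, Osmr at -5.3 kb, Jak1 at -14.1 and -11.5 kb, and Jak2 at -14.6 and 13.8 kb from the start.

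**Figure D2:**
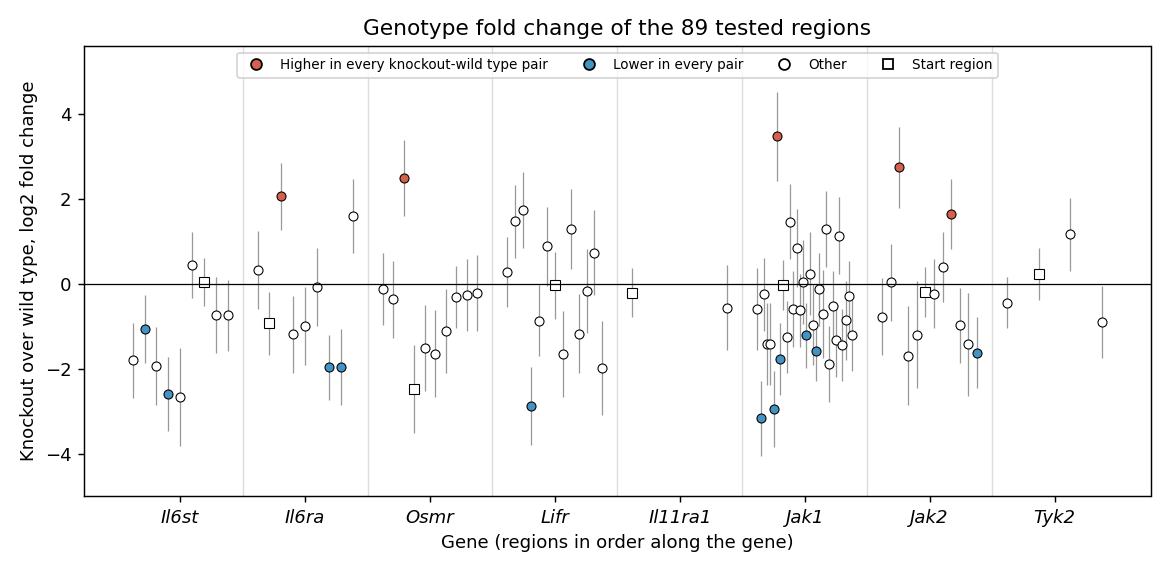
Log2 fold change of knockout over wild type (y axis, bars are the SE, line as the unit) for the 89 tested regions, ordered along each gene (x axis). Red points mark the 5 regions higher and blue points the 11 lower in every knockout and wild-type pair, squares mark the 8 start regions, none of them coloured, and values run from -3.16 to 3.47.

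Il6st encodes gp130, the subunit all of these cytokines share. Of its 9 regions 7 lay outside the gene and 7 of 9 had a log2 fold change below 0. The region 16.8 kb before the start (chr13:112447037-112447565) gave 1.65 and 1.27 (112), 1.84 and 1.23 (113), 9.203 and 6.44 (119) and 10.6 and 9.36 (73) CPM. Every knockout library was below every wild-type library. The genotype log2 fold change was -2.59 ± 0.88 (SE, adjusted p = 0.189), and the 4 line pairs ran from -2.73 to -2.34 with a largest adjusted p of 4.3e-06. A second region, 24.3 kb before the start (chr13:112439128-112440486), was at 4.25 to 8.30 CPM in the knockout and 9.89 to 15.7 CPM in the wild-type libraries. It too was lower in each pair, and its genotype log2 fold change was -1.07 ± 0.80 (SE, adjusted p = 0.531). The widest range between lines was at another upstream region, 12.1 kb before the start (chr13:112451743-112452254), with 1.18 and 0.949 (112), 1.84 and 3.19 (113), 21.5 and 18.7 (119) and 1.01 and 1.101 (73) CPM. This region was high in line 119 alone and had peaks only in the 2 libraries of that line.

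Il6ra, the interleukin-6 binding subunit, had separated regions in both directions within the gene body. Its start region (chr3:89912893-89913471) gave 6.14 and 6.96 (112), 19.4 and 19.4 (113), 15.2 and 14.8 (119) and 35.7 and 31.9 (73) CPM. Line 112 was lowest and line 73 highest, and the genotypes overlapped, with line 113 above line 119. Its start window is shown because it held the only match among the member windows to the E-box letters CACGTG, in capitals (read on both strands), 24 bases before the start. This and the windows below are from RefSeq (GRCm38.p6) and run 5′ to 3′ along the gene's strand, from 250 bases before the start to 30 after it. The Il6ra window is chr3:89913167-89913446, minus strand:
Il6ra: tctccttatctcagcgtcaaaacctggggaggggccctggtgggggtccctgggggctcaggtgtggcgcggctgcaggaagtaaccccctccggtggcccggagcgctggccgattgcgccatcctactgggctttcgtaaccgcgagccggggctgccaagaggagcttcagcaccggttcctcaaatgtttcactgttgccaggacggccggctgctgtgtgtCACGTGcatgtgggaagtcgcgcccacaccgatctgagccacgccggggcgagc
The match is a description of the letters, not a binding site. E-box letters stood in 7.15% of 32851 windows of 300 bases around mouse gene starts.

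The Il6ra region 3.3 kb into the gene (chr3:89909585-89910231) gave 25.03 and 16.8 (112), 32.3 and 33.6 (113), 9.46 and 9.33 (119) and 3.802 and 1.93 (73) CPM. All knockout libraries were above all wild-type libraries, and line 73 was lowest. The genotype log2 fold change was 2.06 ± 0.79 (SE, adjusted p = 0.224), and the pairs ran from 1.17 to 3.49 (largest adjusted p 8.4e-05). It had a peak in every knockout library and in both libraries of line 119. The region 16.2 kb in (chr3:89896477-89897447) went the other way, at 6.85 and 7.27 (112), 3.69 and 5.89 (113), 16.3 and 16.4 (119) and 30.9 and 26.4 (73) CPM. The wild-type libraries were all higher, line 73 most, and the genotype log2 fold change was -1.96 ± 0.77 (SE, adjusted p = 0.231). Further in, at 33.0 kb (chr3:89879978-89880493), the libraries stood at 0.922 to 3.07 CPM in the knockout and 5.44 to 12.2 CPM in the wild-type lines, with a genotype log2 fold change of -1.96 ± 0.89 (SE, adjusted p = 0.285). Both lower regions had peaks only in the 4 wild-type libraries.

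Osmr, the oncostatin M receptor subunit, was most accessible at its start in line 73. The start region (chr15:6873907-6874583) gave 2.598 and 4.74 (112), 1.15 and 3.19 (113), 1.94 and 3.73 (119) and 28.1 and 30.3 (73) CPM. Peaks were called in both libraries of line 73 and the second of line 119. Lines 112, 113 and 119 were all low, so the wild-type lines stood on both sides. Line 119 over line 73 gave a log2 ratio of -3.40 ± 0.30 (SE, adjusted p = 1.2e-13), and the ratios of lines 112 and 113 over line 73 were -3.03 ± 0.33 (SE, adjusted p = 5.0e-11) and -3.75 ± 0.35 (SE, adjusted p = 2.1e-13). Over line 119, lines 112 and 113 gave 0.36 ± 0.43 (SE, adjusted p = 0.503) and -0.35 ± 0.47 (SE, adjusted p = 0.525). The genotype log2 fold change, -2.48 ± 1.03 (SE, adjusted p = 0.255), thus came from 1 line. The start window (chr15:6874284-6874563, minus strand) held the only match among the member windows to the AP-1 letters TGANTCA, in capitals, which stood in 7.81% of all windows:
Osmr: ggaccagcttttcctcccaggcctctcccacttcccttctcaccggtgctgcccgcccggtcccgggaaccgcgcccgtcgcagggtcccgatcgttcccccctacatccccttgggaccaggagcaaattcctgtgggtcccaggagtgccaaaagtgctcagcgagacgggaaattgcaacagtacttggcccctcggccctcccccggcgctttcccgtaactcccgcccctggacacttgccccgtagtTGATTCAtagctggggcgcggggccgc
It covered bases 254 to 260 of the window, just past the start, and again describes letters only.

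The same line stood out deeper in Osmr. The regions 0.7, 12.5 and 16.3 kb into the gene had line means of 11.6, 11.2 and 7.25 CPM in line 73 and 0.848 to 2.76 CPM in the other 3 lines. Of the 10 Osmr regions 7 were highest in line 73, and the 10 Mb window around the gene was itself 0.27 above the mean of the lines there on the log2 scale. The region at 24.2 kb (chr15:6849645-6850486) was not of this kind, with 9.45 and 5.69 (112), 26.97 and 24.1 (113), 24.4 and 23.9 (119) and 13.4 and 18.2 (73) CPM. It had a peak in 7 libraries, all but the second of line 112, which is the smallest library. Its level was lowest in line 112. The 1 separated Osmr region lay 5.3 kb before the start (chr15:6879281-6879924), at 5.195 and 3.796 (112), 14.5 and 5.4003 (113), 1.296 and 0.848 (119) and 1.27 and 1.65 (73) CPM. Every knockout library was above every wild-type library, with the first library of line 113 far above the rest, and the genotype log2 fold change was 2.49 ± 0.90 (SE, adjusted p = 0.206). Leaving out single libraries moved it between 1.94 and 2.86.

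Lifr, the receptor subunit for leukaemia inhibitory factor, differed more between the knockout lines than between genotypes at its start. The start region (chr15:7129123-7129931) gave 3.78 and 8.86 (112), 36.4 and 40.01 (113), 13.999 and 13.7 (119) and 33.7 and 28.3 (73) CPM. Line 112 was lowest and line 113 highest, with both wild-type lines between them. The log2 ratio of line 112 over 113 was -2.66 ± 0.26 (SE, adjusted p = 7.0e-11), and the genotype log2 fold change was -0.04 ± 0.79 (SE, adjusted p = 0.992). No library of line 112 had a peak there, while all 6 others had one. The window at this start is shown for its base composition, with 53 CpG pairs in 300 bases and 81.3% G and C, against medians of 7 and 52.7% over all windows (chr15:7129322-7129601, plus strand):
Lifr: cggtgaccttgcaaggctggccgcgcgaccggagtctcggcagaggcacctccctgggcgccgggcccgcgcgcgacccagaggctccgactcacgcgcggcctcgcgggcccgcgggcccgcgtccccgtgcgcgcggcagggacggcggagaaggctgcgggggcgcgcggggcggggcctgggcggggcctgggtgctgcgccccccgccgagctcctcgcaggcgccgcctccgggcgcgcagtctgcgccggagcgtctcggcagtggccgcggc
None of the searched letters (TTCNNNGAA of STAT proteins, found in 8.30% of all windows, the AP-1 and E-box letters, and TCATGTG of the Mitf type, in 3.77%) matched this window.

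Away from the start, Lifr had 1 separated region. It lay 37.0 kb before that start but inside the annotated gene, which has an earlier end (chr15:7092273-7092797), and gave 0.945 and 2.85 (112), 1.15 and 0.491 (113), 7.13 and 7.29 (119) and 12.2 and 10.7 (73) CPM. The knockout libraries were all lower and had no peak. The genotype log2 fold change was -2.87 ± 0.92 (SE, adjusted p = 0.174), and the pairs ran from -3.74 to -2.01 (largest adjusted p 7.2e-05). The region with the widest line range lay 65.1 kb into the gene (chr15:7194068-7195303), at 9.21 and 8.54 (112), 27.2 and 27.5 (113), 17.9 and 20.7 (119) and 1.01 and 1.65 (73) CPM. Line 73 was almost without signal there, and the 3 other lines, of both genotypes, had it, line 113 most. The region 10.5 kb before the start (chr15:7118674-7119378) had the same order, with line means of 12.3, 22.4, 16.2 and 1.56 CPM in lines 112, 113, 119 and 73.

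**Figure D3:**
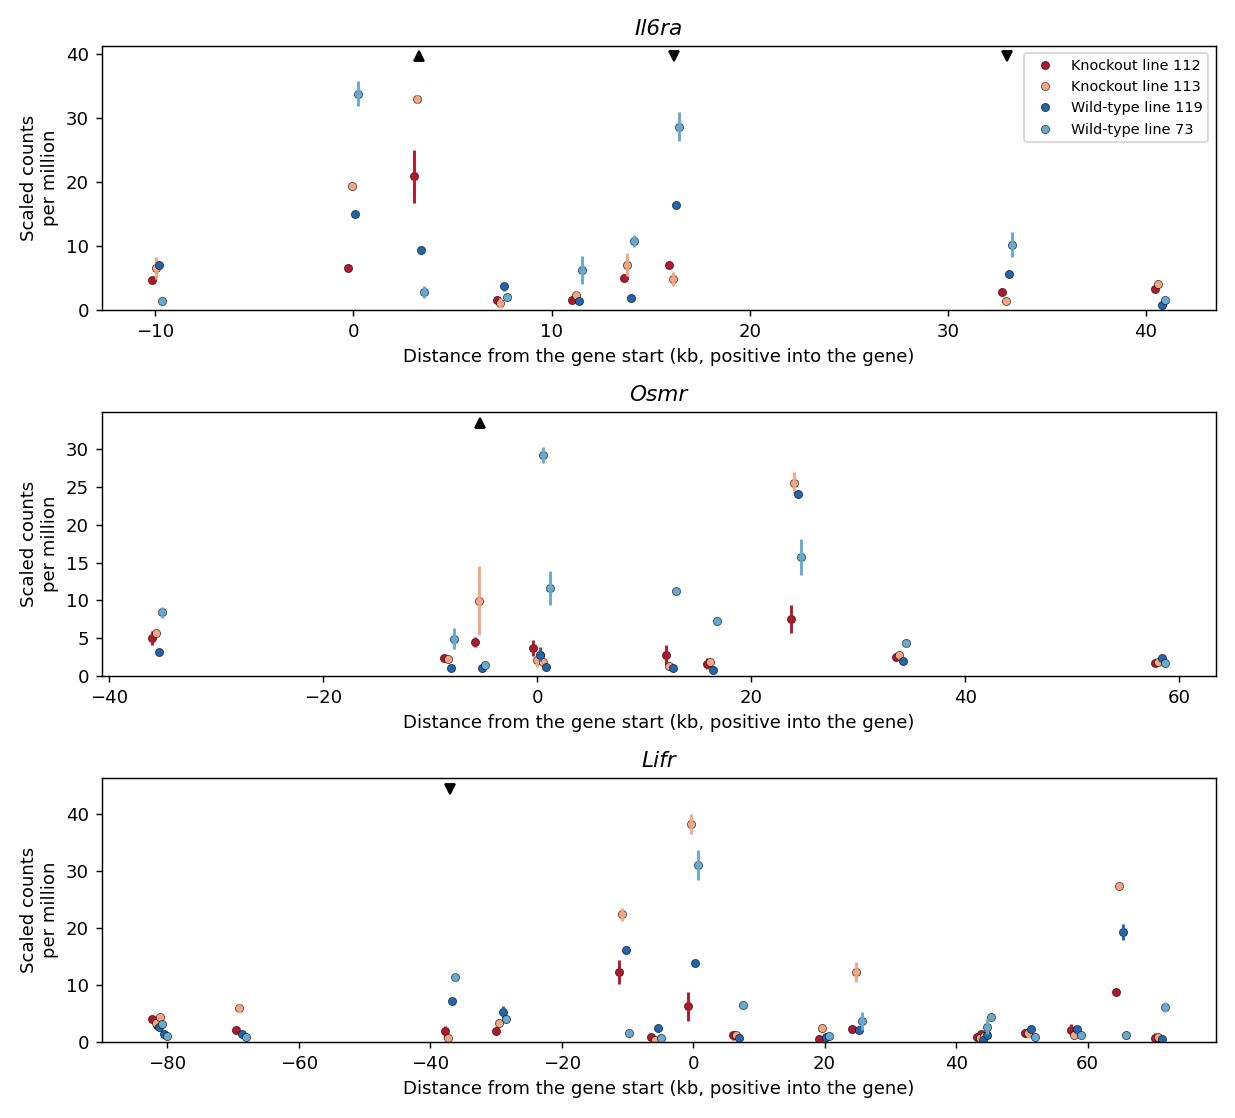
TMM-scaled CPM (y axis) of each region of Il6ra, Osmr and Lifr against distance from the gene start in kb (x axis), as the mean of 2 libraries per line with bars from the lower to the higher library. Triangles mark regions higher (up) or lower (down) in every knockout and wild-type pair, and the Osmr panel shows line 73 alone at 29.2 on average at the start.

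Il11ra1, the interleukin-11 binding subunit, had 2 regions. Its start region (chr4:41760132-41761233) gave 28.6 and 22.5 (112), 40.3 and 38.5 (113), 33.2 and 32.4 (119) and 40.1 and 41.8 (73) CPM. Line 112 was lowest and line 119 next, so the genotypes overlapped, and the genotype log2 fold change was -0.21 ± 0.57 (SE, adjusted p = 0.918). The second region, 2.4 kb in (chr4:41762530-41763125), gave 3.78 and 5.38 (112), 1.15 and 2.21 (113), 1.04 and 0.848 (119) and 6.59 and 9.91 (73) CPM and was highest in line 73, with a genotype log2 fold change of -0.56 ± 0.99 (SE, adjusted p = 0.852). The gene has a near-identical copy, Il11ra2, for which no region was listed, so reads of either may have been placed at one or dropped, and these values are uncertain.

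Jak1, the kinase bound to gp130 and to many other cytokine receptors, had the most regions and, by number, the most separated ones. These were 6 of 30 (5 lower and 1 higher), against 15.8% of all tested regions (7.55% lower, 8.22% higher). Il6ra, with fewer regions, had 3 of 9 and Jak2 3 of 12. The region 41.2 kb before the start (chr4:101306106-101306647) gave 1.65 and 1.27 (112), 1.84 and 1.96 (113), 17.4 and 13.2 (119) and 13.9 and 14.3 (73) CPM. The 4 knockout libraries stood within 1.27 to 1.96 CPM and the 4 wild-type libraries within 13.2 to 17.4, with means over line means of 1.68 ± 0.315 and 14.7 ± 0.829 (SD, n = 2 lines each). Its genotype log2 fold change of -3.16 ± 0.88 (SE, adjusted p = 0.155) had the smallest adjusted p of the 8 genes, and the pairs ran from -3.35 to -2.87. The region at 27.0 kb before the start (chr4:101291942-101292504) gave 2.36 and 3.48 (112), 0.922 and 1.72 (113), 10.8 and 8.82 (119) and 20.8 and 22.6 (73) CPM. It was lower in both knockout lines and higher in line 73 than in line 119, with a genotype log2 fold change of -2.94 ± 0.90 (SE, adjusted p = 0.167). Between these and the gene lay the 1 higher region, 14.1 kb before the start (chr4:101279027-101279636), with 4.01 and 1.27 (112), 15.9 and 15.5 (113), 1.04 and 1.02 (119) and 0.507 and 0.5503 (73) CPM. Line 113 carried nearly all of this signal and line 112 little, although each pair passed the test (largest adjusted p 0.0204). The call was lost with DESeq2 and without the first library of line 112 or either library of line 119, and the genotype log2 fold change was 3.47 ± 1.04 (SE, adjusted p = 0.165).

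The 3 other separated Jak1 regions were lower in the knockout lines. At 11.5 kb before the start (chr4:101276280-101277154) the level was 1.84 to 6.96 CPM in the knockout and 8.37 to 20.3 CPM in the wild-type libraries. This region kept the call in 6 of 17 alternatives and lost it under start, size-factor (RLE) and total-count scaling, with DESeq2 and without 5 of the 8 libraries in turn. Inside the gene, the region at 30.7 kb (chr4:101234238-101234872) gave 8.501 and 4.74 (112), 8.299 and 8.1004 (113), 16.9 and 16.6 (119) and 16.2 and 18.4 (73) CPM, about the same in the 2 wild-type lines. Its genotype log2 fold change was -1.21 ± 0.77 (SE, adjusted p = 0.442), and the pairs ran from -1.34 to -1.03 (largest adjusted p 8.2e-04). At 62.4 kb (chr4:101202530-101203162) the libraries gave 6.38 and 6.96 (112), 10.1 and 12.8 (113), 22.7 and 20.01 (119) and 33.7 and 29.7 (73) CPM. All 8 libraries had a peak there and the genotypes did not overlap, with a genotype log2 fold change of -1.59 ± 0.71 (SE, adjusted p = 0.278). Of the 30 Jak1 regions 23 were below 0 and 7 above (45.1% of all tested regions were above 0), with a median of -0.67. The 2 regions counted for Jak1 that lie inside the neighbouring gene Raver2 were not among the separated ones. The Jak1 start itself had a genotype log2 fold change of -0.02 ± 0.59 (SE, adjusted p = 0.993), and its window, with 29 CpG pairs in 300 bases, is shown because Jak1 had the most separated regions (chr4:101265194-101265473, minus strand):
Jak1: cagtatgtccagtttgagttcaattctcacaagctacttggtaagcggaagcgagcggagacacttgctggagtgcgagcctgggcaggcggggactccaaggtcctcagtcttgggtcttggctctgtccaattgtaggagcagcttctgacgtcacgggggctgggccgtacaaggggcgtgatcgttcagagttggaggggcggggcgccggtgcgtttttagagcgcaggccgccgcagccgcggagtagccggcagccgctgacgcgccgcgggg
None of the searched letters matched it.

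**Figure D4:**
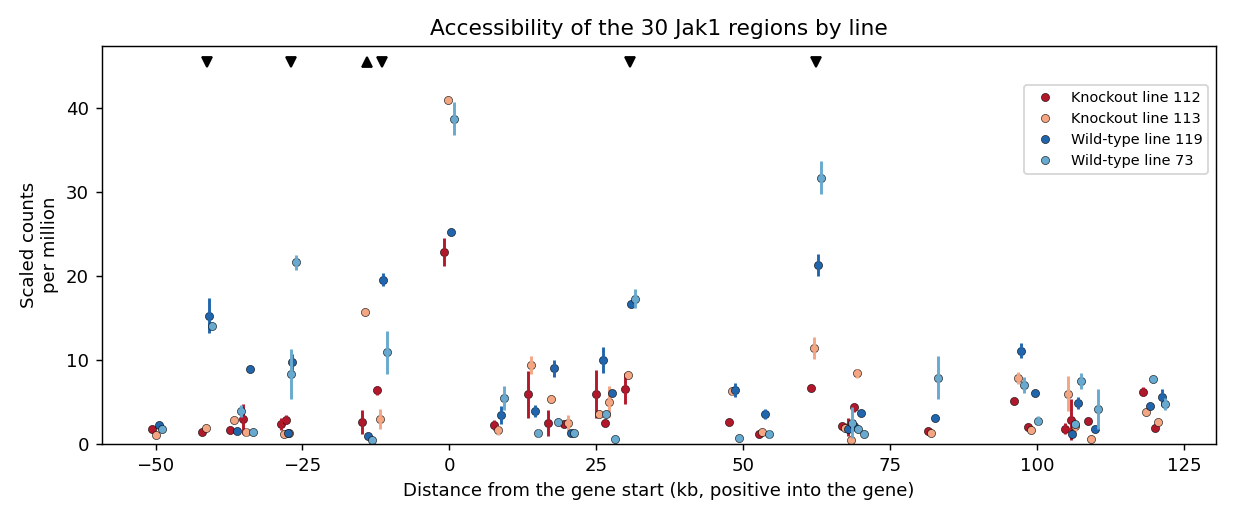
TMM-scaled CPM (y axis) of the 30 Jak1 regions against distance from the gene start in kb (x axis), as the mean of 2 libraries per line with bars from the lower to the higher library. Triangles mark the 5 regions lower (down) and the 1 higher (up) in every knockout and wild-type pair, and at the start itself lines of both genotypes overlap.

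Jak2, the kinase of gp130 and of hormone-type receptors, had 2 higher and 1 lower separated region of 12. The region 13.8 kb into the gene (chr19:29265289-29265968) gave 25.3 and 13.6 (112), 20.1 and 19.9 (113), 10.2 and 8.31 (119) and 3.04 and 2.48 (73) CPM. The knockout libraries were all higher, and line 73 was lowest, with a genotype log2 fold change of 1.64 ± 0.82 (SE, adjusted p = 0.33). The call was lost under start scaling and without the first library of line 112 or the second of line 119. At 40.9 kb (chr19:29292463-29293025) the order turned, at 3.07 and 3.796 (112), 3.46 and 3.19 (113), 11.02 and 10.005 (119) and 10.9 and 7.98 (73) CPM. The 4 knockout libraries were nearly equal and all below the wild-type libraries, with a genotype log2 fold change of -1.62 ± 0.84 (SE, adjusted p = 0.342). The region 14.6 kb before the start (chr19:29236961-29237498) was at 2.21 to 5.99 CPM in the knockout and 0.507 to 0.550 CPM in the wild-type libraries, so that it rests on few counts. The widest line range was at 10.1 kb before the start (chr19:29241470-29241970), where line 73 stood at 9.38 and 12.4 CPM and the other libraries at 0.130 to 3.48.

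Tyk2, the kinase paired with Jak1 or Jak2 on several receptors, had 0 separated regions of the 4 tested. Its start had a genotype log2 fold change of 0.22 ± 0.61 (SE, adjusted p = 0.918). The smallest genotype p and the widest line range were at a weak region 10.9 kb into the gene (chr9:21120153-21120653), with 3.07 and 5.06 (112), 3.23 and 2.45 (113), 1.69 and 2.204 (119) and 1.01 and 0.825 (73) CPM and a log2 fold change of 1.16 ± 0.86 (SE, adjusted p = 0.525). All knockout libraries lay above all wild-type libraries there, but 3 of the 6 line pairs passed the test and the levels were low.

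Summing all regions of a gene gave 1 value per gene, scaled on the sums of 17931 tested genes. This scale was not that of the regions. On the log2 scale, the library scale of the sums stood off it by -0.11 and -0.22 (112) and 0.23 and 0.16 (113). For the wild-type lines it was -0.23 and -0.21 (119) and 0.20 and 0.17 (73). Sums of lines 112 and 119 thus stand higher against those of 113 and 73 than region levels do. None of the 8 genes passed the genotype test (0 of 8, against 0.0% of all genes), 1 of 8 had an unadjusted p under 0.05 (Jak1, lower, against 9.46% and 6.2% lower), and DESeq2 called 0. For Jak1 the sums were 129 and 138 (112), 136 and 149.6 (113), 256 and 249 (119) and 175 and 214 (73) CPM. All knockout libraries were below all wild-type libraries. Line 119 was highest on this scale, with a log2 ratio over line 73 of 0.38, and its rank on the scale of the regions was not tested. The genotype log2 fold change was -0.71 ± 0.29 (SE, adjusted p = 0.489). Jak1 was the 1 gene of 8 separated in its sum (12.0% of all genes, 7.17% lower), with pairs of -0.92, -0.54, -0.82 and -0.44 for 112 over 119, 112 over 73, 113 over 119 and 113 over 73. Without the second library of line 73 the last pair no longer passed and 0 genes were separated. Scaled on start regions, Il6ra joined Jak1 as separated and lower.

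Scaled on the sums themselves, the other genes were not separated. For Il6st and Il11ra1, as for Jak1, all knockout libraries were still below all wild-type libraries on this scale. The share of all genes with such sums is not given here, so this is not read as a result about these genes. Whether it holds on the scale of the regions was not tested. Il11ra1 gave 35.4 and 32.9 (112), 35.9 and 37.01 (113), 40.8 and 39.1 (119) and 41.2 and 46.6 (73) CPM, with 1 of 6 line pairs past the threshold. Osmr gave 37.96 and 40.7 (112), 51.1 and 47.05 (113), 46.4 and 47.6 (119) and 85.9 and 85.2 (73), high in line 73 only, with lines 112, 113 and 119 at -1.13, -0.80 and -0.86 on the log2 scale below it (adjusted p 6.6e-08, 2.7e-06 and 7.6e-07). Lifr gave 51.1 and 68.8 (112), 109.6 and 117 (113), 90.8 and 100.3 (119) and 79.4 and 67.7 (73), so that the knockout lines held the lowest and the highest values, -0.94 ± 0.14 (SE, adjusted p = 7.4e-06) apart for line 112 over 113. Il6st gave 71.5 and 72.9 (112), 83.03 and 81.2 (113), 131 and 123 (119) and 86.1 and 93.2 (73), highest in line 119 on this scale. It fell short of separation in 1 pair, line 113 over 73, at -0.13 ± 0.11 (SE, adjusted p = 0.38). Jak2 and Tyk2 had 0 of 6 line pairs past the threshold, with ranges between lines of 0.22 and 0.13 on the log2 scale. Scaled on start regions, Jak2 differed in 2 pairs, 113 over 119 at -0.47 (adjusted p = 7.7e-04) and 112 over 113 at 0.39 (adjusted p = 0.00878), and Tyk2 in 0. The genotype log2 fold changes of the sums were -0.59 for Osmr, -0.50 for Il6st, -0.30 for Il6ra, -0.25 for Il11ra1, -0.10 for Jak2, -0.05 for Tyk2 and 0.01 for Lifr, with adjusted p of 0.704 to 0.995.

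**Figure D5:**
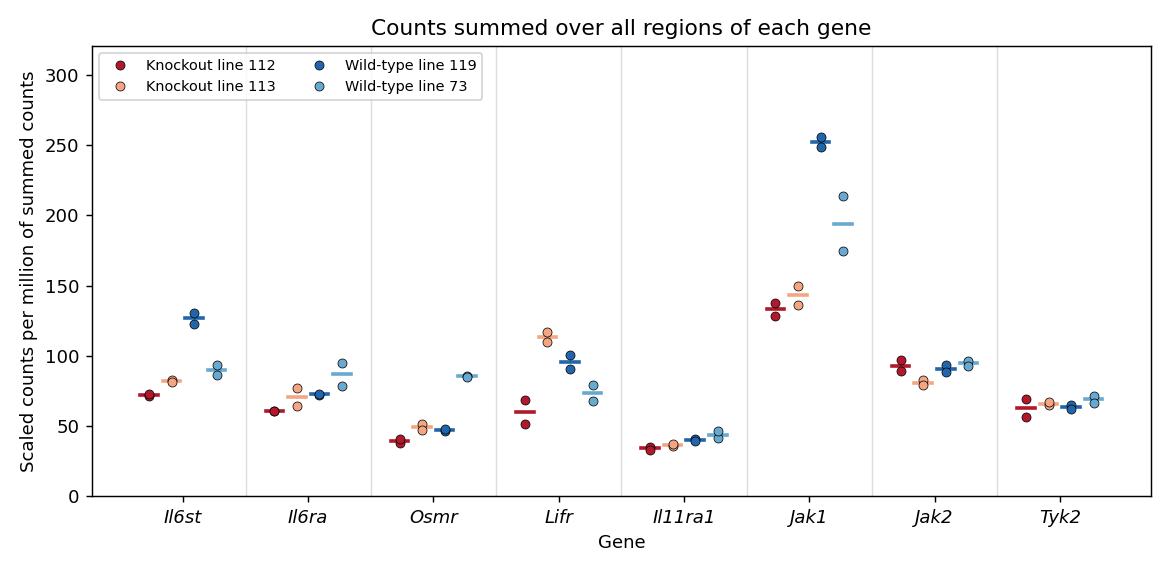
Scaled CPM of summed counts (y axis), over all regions of each gene (x axis), in the 8 libraries, with points for single libraries and bars for line means. Jak1 is the 1 gene whose knockout libraries (129 to 150) all lie below its wild-type libraries (175 to 256) with every line pair past the threshold, and Osmr is high in line 73 only.

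Pairs of lines differed at many of the 89 regions, as in the whole table. Line 112 over 119 differed at 42 (10 higher, 32 lower, background 48.6%, 23.4% higher and 25.3% lower). For 112 over 73 it was 59 (16 and 43, background 52.4%, 25.4% and 27.0%), for 113 over 119 it was 49 (20 and 29, background 61.2%, 31.0% and 30.1%), and for 113 over 73 it was 60 (22 and 38, background 54.5%, 27.1% and 27.4%). Within genotypes, the 2 knockout lines, 112 over 113, differed at 25 (5 and 20, background 25.5%, 8.95% and 16.5%) and the 2 wild-type lines, 119 over 73, at 60 (23 and 37, background 60.2%, 29.6% and 30.7%). These comparisons share lines with each other. Directions depended on the scaling. Scaled on start regions, 112 over 113 differed at 23 (16 higher and 7 lower, background 24.8% and 5.44%), 113 over 119 at 56 (11 and 45, 13.3% and 44.7%) and 119 over 73 at 49 (33 and 16, 42.6% and 13.3%). On that scale 112 over 73 differed at 45 (22 and 23, 36.4% and 16.1%), 112 over 119 at 46 (9 and 37, 18.5% and 29.8%) and 113 over 73 at 59 (21 and 38, 26.5% and 28.2%). Line 73 held the highest mean at 40 of the 89 regions, line 119 at 25, line 113 at 21 and line 112 at 3, against 31.3%, 26.6%, 26.6% and 15.4% of all regions. Peaks were called over 22 and 11 of the 94 regions (112), 31 and 33 (113), 54 and 55 (119), and 47 and 45 (73). Over all regions the shares were 24.5% and 12.6% (112), 33.4% and 33.5% (113), 61.1% and 54.8% (119), and 36.1% and 35.7% (73). A peak was called in at least 1 library for 92 of the 94 regions (87.8% of all) and in all 8 for 7 (8.19% of all). Of the 8 summed genes, 3 differed for 112 over 119 (all lower, background 48.6%, 25.7% lower), 5 for 112 over 73 (all lower, 51.3%, 24.1% lower), 2 for 113 over 119 (both lower, 57.2%, 30.2% lower) and 4 for 113 over 73 (1 higher, 3 lower, 51.5%, 25.6% higher and 25.9% lower). It was 1 for 112 over 113 (lower, 39.6%, 16.7% lower) and 4 for 119 over 73 (3 higher, 1 lower, 56.7%, 30.0% higher and 26.7% lower). Scaled on start regions, the summed genes that differed were 6 for 112 over 119 (0 higher and 6 lower, background 16.9% and 32.9%), 5 for 113 over 119 (0 and 5, 9.37% and 45.6%), 3 for 112 over 73 (0 and 3, 33.8% and 16.1%) and 2 for 112 over 113 (1 and 1, 32.3% and 6.39%).

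The rest of the pathway was described from a list of 60 genes: ligands, other receptors, Jak3, STATs, inhibitors, adaptors and other receptors that use Jak1 or Jak2. Of the 57 with enough counts in their sums, 0 passed the genotype test, 9 had an unadjusted p under 0.05 (9.46% of all genes), and the median log2 fold change was -0.13 against -0.01 for all genes. Separated sums numbered 13, 6 higher and 7 lower (12.0% of all genes, 4.87% higher), with 3 of the 7 STATs higher, 2 of the 9 ligands lower and, of the 12 other Jak-using receptors, 1 higher and 4 lower. At gene ends, 2 regions were separated higher and 2 lower of 48 tested. The share was 6.05% for all regions covering a listed start and 16.7% for the other tested regions. An end region was the strongest within 1 kb of either end of the gene, so neither share is a matched background. Clcf1, a ligand of the ciliary neurotrophic factor receptor complex, had an end region at 5.67 and 7.27 (112), 7.15 and 6.63 (113), 33.6 and 34.1 (119) and 48.7 and 37.7 (73) CPM. All knockout libraries were lower, and the genotype log2 fold change was -2.57 ± 0.66 (SE, adjusted p = 0.15). Cntf, the ciliary neurotrophic factor itself, was at 4.25 and 4.11 (112), 4.15 and 6.38 (113), 11.7 and 9.496 (119) and 19.8 and 20.1 (73) CPM, also lower in the knockout libraries, with -1.72 ± 0.82 (SE, adjusted p = 0.306). Stat5b, a STAT of growth hormone and interleukin-2 signalling, had a separated end region that was higher in the knockout lines. It gave 8.22 to 12.5 CPM in the knockout libraries, 0 counts in both libraries of line 119 and 1.101 and 1.52 CPM in line 73. The sum over its 7 regions was 0.309 and 0 CPM in line 119 and 35.7 to 62.1 in the other 6 libraries, so that line 119 alone lacked signal across that gene. Stat5a, one of the 3 STATs with a higher sum, was also at 0 counts in line 119 and at 15.9 to 36.7 CPM in the other 6 libraries.

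The genes whose sums over the 8 libraries followed those of the 3 most variable members most closely were taken from 13381 genes, with Pearson's r of the log2 values as a description. For Osmr they were Hmgb1 (r = 0.990), Anxa3 (0.985) and Ankrd1 (0.982), each highest in line 73. Anxa3 had means of 31.1, 48.3, 48.9 and 131 CPM in lines 112, 113, 119 and 73. For Jak1 they were Ankef1 (0.998), Lpcat1 (0.990) and 4921504E06Rik (0.989), each highest in line 119 and lower in both knockout lines on the scale of the sums. Lpcat1 had 108, 118, 231 and 172 CPM. For Lifr they were Il17rc (0.979), Armc5 (0.961) and Elmod2 (0.950). The 8 libraries are 4 lines in duplicate, so any pair of genes shares these lines.

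The 50 kb limit was met closely at Jak1 only. The last region inside it, 49346 bp from the gene, had line means of 1.82, 1.07, 2.25 and 1.84 CPM in lines 112, 113, 119 and 73, and the first outside it, at 50077 bp, had 1.54, 0.591, 4.66 and 3.29 CPM. The first regions outside for Osmr and Lifr lay 52614 and 52588 bp away. None of these was separated. Within 10 kb of the genes there were 74 of the 94 regions.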

How the data were processed

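Chromatin accessibility had been measured by ATAC-seq in 8 libraries of 4 melanoma lines, from 50000 cells per transposase reaction and with fragments over 1200 bp removed, per the labels' protocols. The authors deposited 1 table of raw counts over 148664 regions of 501 to 3708 bp and, per library, a peak list. Each deposited peak carries a score, a fold over background (a ratio) and -log10 p and q values, all the peak caller's own, and peaks were listed per library. The submitters' processing notes name mm10 and GRCm38, Bowtie2 2.2.4, Picard 1.118 and MACS2 2.1.1.20160309, without order. How Tn5 offsets and duplicates were treated is not given in the sources used here.

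Regions were assigned to genes with RefSeq coordinates of GRCm38.p6, a table with no exons, so regions are given as inside or outside a gene. Regions with at least 10 counts in enough libraries and 15 in total were kept (134068). edgeR 4.0.16 in R 4.3.3 gave TMM scaling and robust quasi-likelihood tests, with Benjamini-Hochberg adjustment over all tested features. Genotypes were compared on counts summed per line (2 against 2 lines), and line pairs over 8 libraries with a mean per line. Summed genes were scaled on their own. Peaks overlapping by at least 1 bp (bedtools 2.31.1) marked a region. DESeq2 1.42.0, other scalings, filters, a replicate block and left-out libraries were alternatives. The scripts were also run on simulated data with planted changes, and the share recovered is not given here. 1 count was 0.130 to 0.316 CPM. The deposited totals count reads in regions and not in whole libraries.

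The members and lists were chosen with earlier results of these data known. The text names, per gene, the start region, each separated region, the region of smallest genotype p and the one of widest line range, plus pathway genes with a separated end region, of which 1 is not reported here. Likeness used the 3 members of widest range and genes of at least 20 CPM.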

Additional observations from a re-analysis of the deposited data

Results flagged for a closer look

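Values of the 4 libraries of a genotype were compared at each named region and gene sum, 74 sets in all, and in 2 sets 1 library stood apart from the other 3 by more than Dixon's 95% limit of 0.829. Chance flags about 1 in 20 sets when the 4 values are independent. Here they are 2 libraries from each of 2 lines, so that rate need not hold. At the Osmr region 5.3 kb before the start, the first library of line 113 was highest of the knockout libraries at 14.5 CPM, and the others were at 3.80 to 5.40. Without that library the log2 fold change of knockout over wild type was 1.94, against 2.49 with it. At the Jak1 region 30.7 kb into the gene, the second library of line 112, the smallest library, was lowest at 4.74 CPM, and the other knockout libraries were at 8.10 to 8.50.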

How the results depend on the processing

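The genotype test called 0 member regions under the other scalings, filters and left-out libraries. Filters and left-out libraries changed how many regions were tested. Of all regions, 0.601% were called among those with a peak, 0.287% without the first library of line 112, and 0.0% under the rest of these settings. The test called 22 member regions with libraries as units (22.8% of all regions), 5 with DESeq2 (4.92%) and 19 with a replicate block (17.0%). The block too took libraries as independent units, which they are not. For summed genes the test called 1 (Jak1) with libraries as units (12.6% of all genes) and with the block (8.12%), and 0 otherwise. Same-numbered libraries did not deviate together over all regions (correlations -0.037 to 0.005). Many regions have few counts, so this cannot say whether same-numbered libraries were prepared together. The block kept all 16 separated regions. Separated regions numbered 10 with DESeq2, 5 among regions of at least 50 counts on average (fewer regions tested), and 10 to 16 with 1 library left out. Of the 16, 9 kept the call under every alternative in which they were tested. Separated sums numbered 2 with start scaling (10.7% of all genes) and 0 to 1 with 1 library left out. The filter of 50 counts left 24137 regions of the whole table for testing, against 134068. With it, line pairs differed at 12 (112 over 119), 11 (112 over 73), 12 (113 over 119), 13 (113 over 73), 7 (112 over 113) and 12 (119 over 73) regions. With DESeq2 they differed at 32 for 113 over 119 and 10 for 112 over 113. With 1 library left out, 112 over 113 ranged from 12 to 27. Apart from start scaling, shares over all features are not given beside the counts of separated regions, separated sums, line pairs and summed genes here. The member regions tested under each alternative are not given either. A fall in these counts is therefore not read as a lost difference. Summed genes differing were 6 for 112 over 119, 5 for 113 over 119 and 2 for 112 over 113 with start scaling, 1 to 2 for 112 over 113 with 1 library left out, and for 112 over 73 they were 3 with DESeq2, start scaling, the filter of 50 counts or the block, and 3 to 5 with 1 library left out. Values near 0 changed sign. The Il6st start was -0.0496 with start scaling. The Lifr start was 0.0463 over regions with a peak, 0.335 with the 10 Mb offset, and -0.116 to 0.0846 with 1 library left out. The Jak1 start was 0.0191 with total counts, 0.0752 over regions with a peak, and -0.0717 to 0.0550 with 1 left out. The Lifr sum was -0.127 with start scaling and -0.0297 to 0.102 with 1 left out, and the Tyk2 sum 0.00158 with total counts and -0.130 to 0.0275 with 1 left out. The cause of these changes was not tested. Total-count scaling shifted line-pair log2 ratios by up to 0.33. Depth limits regions of a few CPM, where 1 count of the smallest library is 0.316 CPM.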
